A study of Equus caballus with 33 samples.

Results

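The small leucine-rich proteoglycans are a family of matrix genes, 10 of which are described here in articular cartilage explants of the horse: OMD, OGN, EPYC, LUM, FMOD, DCN, BGN, CHAD, PRELP and ASPN. Each was taken from the platform annotation by its symbol standing alone. Each of the 10 had exactly 1 such probe set (a group of array probes for 1 gene) among the 25923 on the array, which name 16661 genes, so no choice between probe sets was needed. The cartilage was taken after death from the lower end of a cannon bone in 3 horses that showed no joint disease, and the explants rested in medium for 48 h. They were then cultured with recombinant equine interleukin-1β (IL-1β), an inflammatory cytokine, at 10 ng/mL, or in the same kind of medium without it. Both kinds were taken on day 3, day 9, day 15, day 21 and day 27, and unstimulated explants also on day 0. Each of the 11 groups held 3 arrays, 1 for each replicate number, which gave 15 stimulated and 18 unstimulated arrays. RNA came from 2 explants per array, whose matrix was dissolved with trypsin followed by collagenase, so the transcripts are those of cells after that step. The horses' ages and sexes are not given in the sources used here.

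The proteins of this family have a curved core of leucine-rich repeats that binds the surface of collagen fibrils, and most members set the thickness and spacing of those fibrils. Several carry glycosaminoglycan chains: chondroitin or dermatan sulfate on decorin (DCN) and biglycan (BGN), keratan sulfate on fibromodulin (FMOD), lumican (LUM) and osteoadherin (OMD). Chondroadherin (CHAD), asporin (ASPN) and PRELP carry none. Members also bind growth factors of the TGF-β family, and fragments freed from a damaged matrix can be read by Toll-like receptors as a danger signal. In cartilage they lie between the collagen II network, the aggrecan gel and the chondrocyte surface.

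Values are log2 signals as deposited by the authors, and a difference of 1 is a doubling. Array medians lay between 5.16 and 5.38, arrays of a group correlated at 0.960 to 0.989, and 0 pairs of arrays were identical. ACAN, the gene of the cartilage proteoglycan aggrecan, had signals of 9.93 to 12.84 over the 33 arrays, and COL2A1, the main collagen of cartilage, 5.10 to 8.56. Rises and falls of markers are calls at an adjusted p under 0.05 for the average over days in the limma fit described below. That fit called 30.8% of all probe sets in either direction, and 15.3% of all probe sets lower. The mean signal of the 11 measured chondrocyte markers was 8.60 to 9.11 in unstimulated and 6.97 to 8.19 in stimulated arrays, and 7 of the 11 fell with IL-1β on average while 0 rose. Of 9 fibroblast and synovial lining markers, 4 rose and 1 fell on average, with a median difference of 0.24 and list means of 5.99 to 6.54 without and 5.99 to 6.76 with IL-1β. Of 6 tendon and ligament markers, 3 fell and 1 rose (median -0.18), with means of 7.38 to 7.96 and 6.51 to 7.69. Of 7 endothelial markers, 4 fell and 0 rose (median -0.46), with means of 5.41 to 6.15 and 5.09 to 5.63. Of 6 osteoblast and osteocyte markers 2 fell, of 7 lymphocyte markers 1 fell, and of 10 macrophage and monocyte markers 1 rose, the last with means of 4.35 to 4.88 and 4.43 to 4.74. Beside the shares over all probe sets, these small counts are not read as changes of those lists. The tendon gene TNMD (2.57 to 3.48), the macrophage receptor gene CD163 (2.53 to 3.78) and the leukocyte gene PTPRC (3.11 to 4.01) were low in all arrays, where 5% of all values lay under 2.45. The bone gene IBSP (4.40 to 8.01) and the endothelial gene PECAM1 (4.03 to 7.07) were not low in all arrays. The brightest tendon, endothelial and macrophage markers were EGR1, ERG and CD68, with mean signals of 11.93, 10.95 and 8.45. The low genes thus do not speak for their whole lists. The part of these marker changes in the results below was not tested. In whole explants, fewer cells of a type and less RNA per cell cannot be told apart.

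With IL-1β, 9 of the 10 genes fell at an adjusted p under 0.05 when the difference was averaged over the 5 days, and 0 rose. At an unadjusted p under 0.05 PRELP was lower as well and again 0 rose, and the share of all probe sets at that threshold was not computed. The background was high at the adjusted threshold, since 30.8% of all probe sets passed there, and 15.3% of all probe sets passed in the lower direction. The 10 genes were chosen with earlier results of these data known, so their excess over this background is no test of the family. The median difference of the 10 genes was -2.54 on the log2 scale, beside -0.04 over all probe sets, and their differences ran from -4.66 to -0.24. Differences here and below are stimulated minus unstimulated on the log2 scale from a limma fit over all 33 arrays, each given ± its standard error, with n = 3 in every group. The Benjamini-Hochberg adjustment ran across the whole array, and a probe set was called at an adjusted p under 0.05. No label says in words which arrays share a horse, and the main fit leaves out the replicate number. Its p-values measure the spread between these arrays, and the average treats arrays of 1 replicate number at different days as independent. A fit with the replicate number as a block is given as an alternative.

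**Figure D1:**
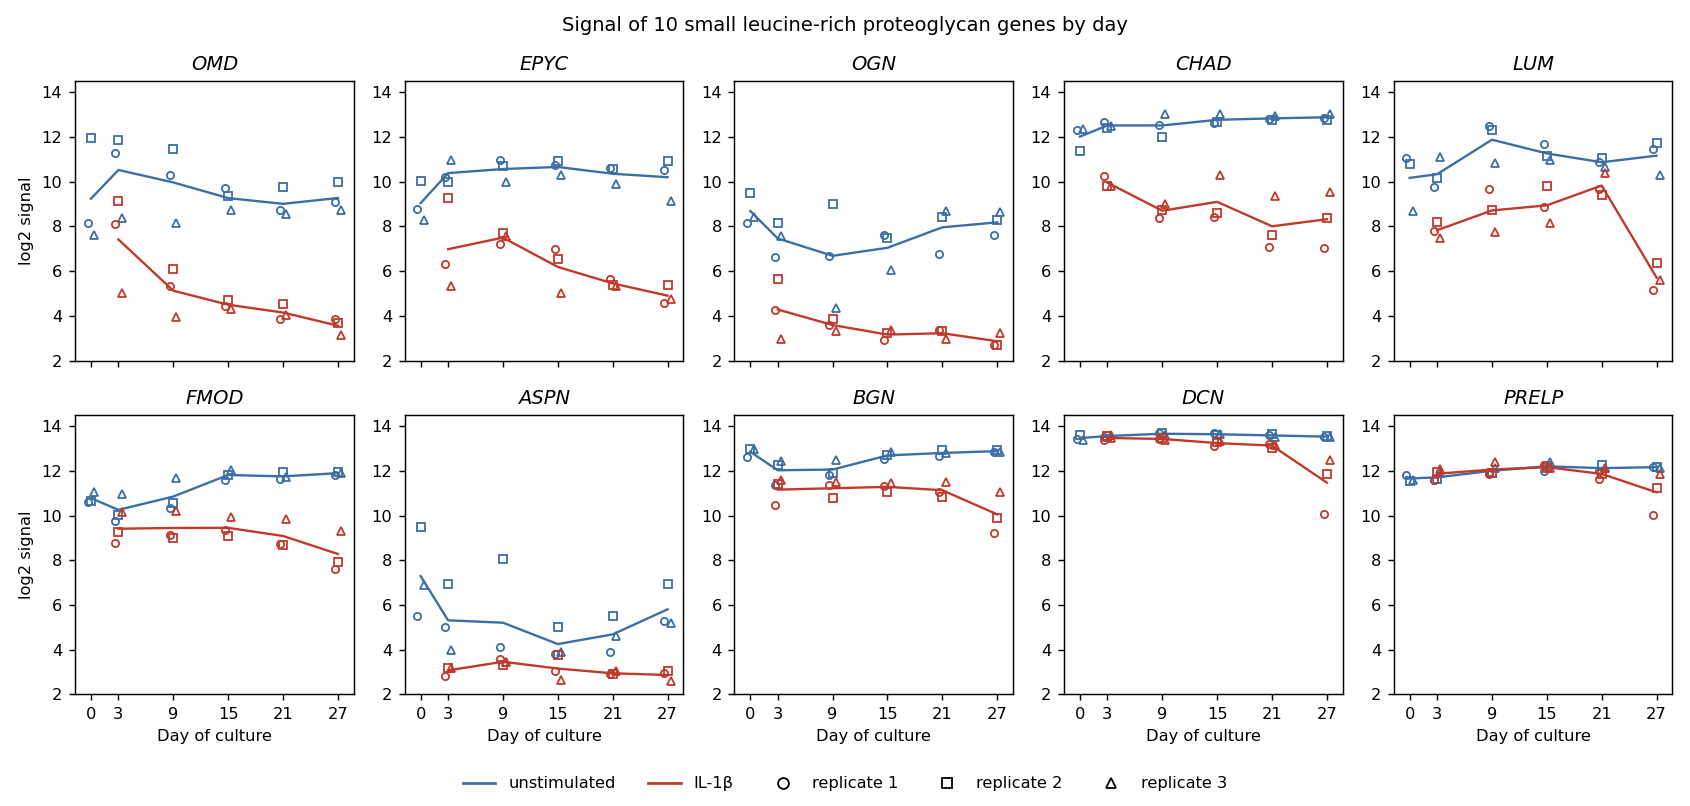
Log2 signal (vertical axis) of the 10 genes against day of culture (horizontal axis), in unstimulated (blue) and IL-1β-stimulated (red) explants; symbols are the 3 replicate numbers and lines join group means, with genes ordered by their average difference. OGN, EPYC, LUM and CHAD do not overlap at any shared day, and OMD overlaps at day 3 only. All genes except CHAD have their group means furthest apart at day 27, and the stimulated LUM signal drops from 9.83 at day 21 to 5.71 at day 27.

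The size of the fall set the genes apart from each other. OMD, EPYC, OGN and CHAD formed the upper end, with average differences of -4.66 ± 0.44, -4.23 ± 0.29, -4.04 ± 0.33 and -3.88 ± 0.23, which is 14.8 to 25.2-fold lower signals. The 95% intervals of these neighbours overlapped, from -5.56 to -3.75 for OMD and from -4.35 to -3.42 for CHAD. LUM (-2.90 ± 0.25) and FMOD (-2.18 ± 0.19) came next, and the interval of LUM, -3.41 to -2.38, reached that of FMOD, -2.57 to -1.79, but not that of EPYC. ASPN fell by 1.95 ± 0.39, BGN by 1.52 ± 0.15 and DCN by 0.65 ± 0.13 (adjusted p = 0.00037). Stimulated OGN and ASPN, and stimulated OMD at day 27, lay near the lowest signals on the array and unstimulated DCN near the highest. The falls of these genes can be understated, and their places in the order are not settled. Unstimulated CHAD and BGN reached 13.05 and 12.98, also high on the scale. PRELP, at -0.24 ± 0.12, missed the threshold (adjusted p = 0.122, limma) but was called without replicate 3 (adjusted p = 0.0442). The other 9 genes passed in each of the alternative settings in which they were tested.

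**Figure D2:**
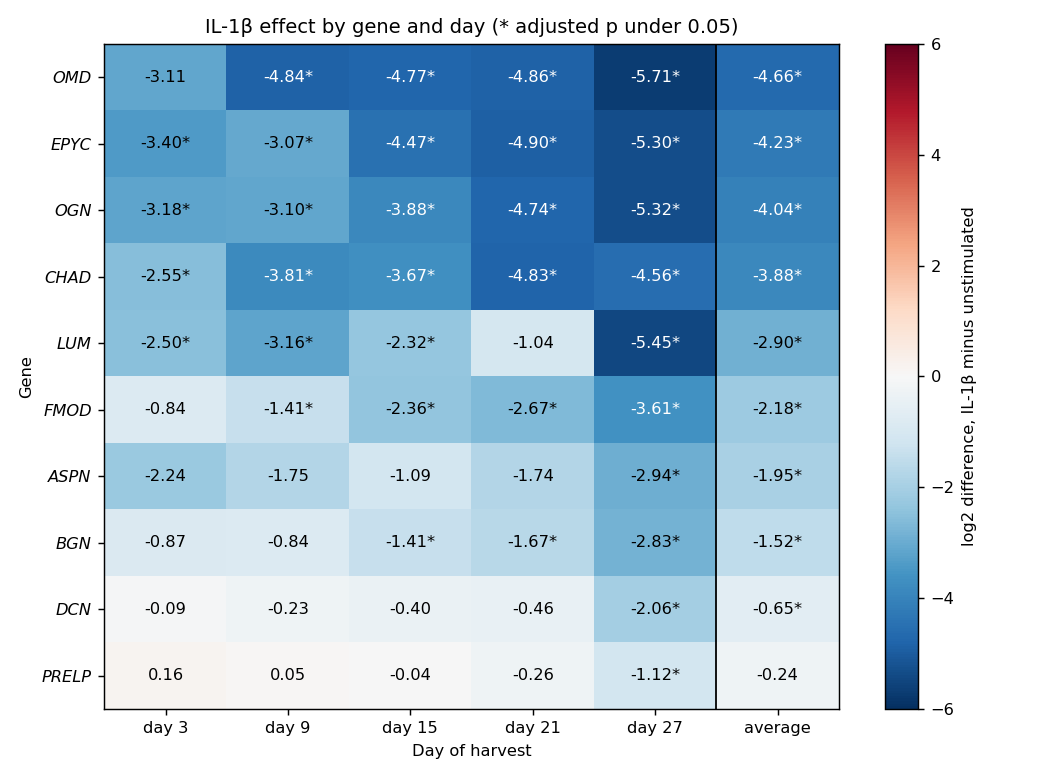
Log2 difference between stimulated and unstimulated explants for each gene (rows) at each day and on average (columns), with the value printed in each cell, blue for lower with IL-1β and an asterisk for an adjusted p under 0.05. The number of called genes goes from 4 at day 3 to 10 at day 27, and LUM at day 21 stands out from its own row at -1.04.

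At day 3, 4 genes were called lower (1.54% of all probe sets), and at day 9 it was 6 (3.63%). Day 15 gave 7 genes (5.88%), day 21 gave 6 (6.02%) and day 27 all 10 (6.54%), and 0 were called higher at any day. With the replicate block, 5 genes were called lower at day 3 (2.22% of all probe sets) and 7 at day 9 (4.65%). At days 15, 21 and 27 the block gave 7 (7.27%), 6 (7.19%) and 10 (7.81%). The median difference of the 10 genes was -2.37 at day 3 and -4.09 at day 27, beside -0.02 and -0.06 over all probe sets. OGN, EPYC and CHAD were called at each of the 5 days, as were 1.07% of all probe sets in this direction. The stimulated arrays lay below all unstimulated arrays of the same day at all 5 days for OGN, EPYC, LUM and CHAD, which held for 2.32% of all probe sets. With 1 replicate number left out, which leaves 2 arrays per group, 1 to 3 genes were called at day 3 and 8 or 9 at day 27. None of the 4 calls at day 3 and 8 of the 10 at day 27 passed in every alternative setting. At day 3, OGN and EPYC were lost without replicate 1 or 3, LUM without replicate 1 or 2 and CHAD without replicate 2. At day 9, OGN was lost without replicate 1 (adjusted p = 0.116) or 2 (adjusted p = 0.221), EPYC without replicate 1 (adjusted p = 0.128) and LUM without replicate 2 (adjusted p = 0.0561). At day 15, OGN (adjusted p = 0.0594) and LUM (adjusted p = 0.103) were lost without replicate 1.

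Among the members that bind fibrils and carry keratan sulfate, OMD had the largest difference and the largest standard error. Its signals at day 0 were 8.16, 11.94 and 7.63 in replicates 1, 2 and 3. At day 3 they were 8.11, 9.12 and 5.01 with IL-1β against 11.30, 11.88 and 8.39 without it. Each stimulated array was thus below its own unstimulated partner, but the groups overlapped, since replicate 3 without IL-1β lay below replicate 2 with it. The day 3 difference of -3.11 ± 0.99 did not pass (adjusted p = 0.0933, limma) and was called with the replicate number as a block (adjusted p = 0.00485). At day 27 the signals were 3.86, 3.69 and 3.13 against 9.07, 10.01 and 8.73, far apart in every replicate, and OMD fell by 5.71 ± 0.99 (adjusted p = 0.000143). The stimulated signals of that day lay near the lowest on the array, so this fall can be understated. Its calls at days 9, 15 and 21 were lost without replicate 1, with adjusted p of 0.0864, 0.0816 and 0.0702. OMD encodes osteoadherin, best known as a cell-binding proteoglycan of mineralised bone matrix.

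FMOD encodes fibromodulin, which binds collagen fibrils and restrains their growth in width. Without IL-1β its signals were 9.76, 10.04 and 10.96 at day 3 and 11.84, 11.95 and 11.90 at day 27. With IL-1β they were 8.79, 9.28 and 10.17 at day 3 and 7.61, 7.93 and 9.31 at day 27. The groups overlapped at day 3 and were separate from day 9 on, with means at days 3 and 27 of 10.26 and 11.90 without and 9.41 and 8.28 with IL-1β. The difference was -0.84 ± 0.42 at day 3 (adjusted p = 0.45, limma) and differences of -1.41, -2.36 and -2.67 were called on days 9, 15 and 21, while on day 27 FMOD fell by 3.61 ± 0.42 (adjusted p = 6.98e-07). The call at day 9 was lost without replicate 1 (adjusted p = 0.143) or 2 (adjusted p = 0.422), and that at day 15 without replicate 2 (adjusted p = 0.0566). The difference at day 27 was larger than at day 3 by -2.77 ± 0.60 (adjusted p = 0.0188), a call that was lost without the stimulated array of day 27, replicate 1 (adjusted p = 0.0784).

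PRELP encodes a fibril-binding protein with a basic end that also binds heparan sulfate of basement membranes. At day 9 its signals were 11.87, 11.91 and 12.39 with IL-1β and 11.96, 11.90 and 12.15 without it. At day 21 they were 11.63, 11.85 and 12.11 against 11.99, 12.27 and 12.11. The groups overlapped at the 4 days up to 21, with differences between -0.26 and 0.16, and intervals at day 3 of -0.37 to 0.70 and at day 21 of -0.79 to 0.28. At day 27 the stimulated arrays gave 10.04, 11.22 and 11.87 and the unstimulated ones 12.19, 12.17 and 12.14. PRELP fell by 1.12 ± 0.26 there (adjusted p = 0.00304), with replicate 1 the lowest, and the call was lost without replicate 1 (adjusted p = 0.099) or replicate 2 (adjusted p = 0.0931).

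EPYC and OGN belong to a class of the family with fewer leucine-rich repeats. EPYC encodes epiphycan, a proteoglycan of growth cartilage, and OGN encodes osteoglycin, also called mimecan. EPYC signals at day 3 were 6.30, 9.29 and 5.35 with IL-1β and 10.22, 9.98 and 10.96 without it, and at day 27 they were 4.60, 5.38 and 4.73 against 10.54, 10.93 and 9.13. The groups did not overlap at any day, although replicate 2 was close to its partner at day 3. EPYC fell by 3.40 ± 0.64 at day 3 (adjusted p = 0.00161) and by 5.30 ± 0.64 at day 27 (adjusted p = 1.23e-06). OGN signals at day 3 were 4.24, 5.64 and 2.97 against 6.64, 8.17 and 7.57, and at day 27 they were 2.68, 2.69 and 3.22 against 7.62, 8.29 and 8.64. The stimulated values from day 9 on lay between 2.68 and 3.85, close to the lowest signals on the array, so the fall of OGN of 5.32 ± 0.74 at day 27 (adjusted p = 8.78e-06) can be understated.

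CHAD encodes chondroadherin, a leucine-rich repeat protein without glycosaminoglycan chains that binds chondrocytes through an integrin and also binds collagen. Its unstimulated signals were high and steady, from 11.37 to 13.05 over 18 arrays with a median of 12.66. At day 3 the stimulated arrays gave 10.25, 9.82 and 9.81 and the unstimulated ones 12.65, 12.38 and 12.51. At day 21 the stimulated arrays gave 7.06, 7.60 and 9.36 against 12.81, 12.75 and 12.93. No stimulated array reached the unstimulated range at any day, and replicate 3 kept the highest stimulated signal from day 9 on. CHAD fell by 2.55 ± 0.51 at day 3 (adjusted p = 0.00283) and by 4.83 ± 0.51 at day 21 (adjusted p = 1.38e-07), with 4.56 at day 27. CHAD was the only gene of the 10 that was called at days 9, 15, 21 and 27 in every alternative setting.

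Decorin, biglycan and asporin form a class of the family by sequence, and decorin binds collagen fibrils and TGF-β. DCN signals were between 13.39 and 13.70 in the unstimulated arrays, close to the highest value on the array, 13.9, where changes can be compressed. With IL-1β they were 13.36, 13.57 and 13.48 at day 3, 13.19, 13.04 and 13.15 at day 21 and 10.08, 11.84 and 12.50 at day 27. DCN overlapped with the unstimulated arrays at day 3 and was below them at the 4 later days, by 0.23 to 0.46 up to day 21. Those differences did not pass (adjusted p = 0.769 at day 9, 0.466 at day 15 and 0.40 at day 21, limma), and DCN fell by 2.06 ± 0.30 at day 27 (adjusted p = 1.53e-05). The broad spread at day 27 enters the error of every day. Without the stimulated array of day 27, replicate 1, DCN was also called at day 15 (-0.40, adjusted p = 0.0353) and day 21 (-0.46, adjusted p = 0.0139).

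BGN encodes biglycan, which binds growth factors and, when released, Toll-like receptors. Its signals at day 3 were 10.46, 11.43 and 11.59 with IL-1β and 11.39, 12.24 and 12.44 without it, and at day 27 they were 9.20, 9.89 and 11.08 against 12.85, 12.95 and 12.85. Each stimulated array lay below its partner at all days, and the groups overlapped only at day 3. BGN differed by -0.87 ± 0.34 at day 3 (adjusted p = 0.226, limma) and -0.84 at day 9 (adjusted p = 0.157, and 0.0487 with the replicate block). It fell by 1.41 ± 0.34 at day 15 (adjusted p = 0.00518), 1.67 at day 21 and 2.83 ± 0.34 at day 27 (adjusted p = 9.29e-07). Without replicate 2 the calls at day 15 (adjusted p = 0.183) and day 21 (adjusted p = 0.112) were lost.

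ASPN encodes asporin, which binds TGF-β and collagen and competes with decorin for its binding site. Its unstimulated signals varied widely between replicate numbers, with 5.52, 9.49 and 6.88 at day 0 and 4.12, 8.04 and 3.47 at day 9. With IL-1β they stayed between 2.59 and 3.78 in all 15 arrays, near the lowest signals on the array. Replicate 2 was the highest of the 3 unstimulated arrays at all 6 times, and its average difference was -3.24 beside -1.36 and -1.26 in replicates 1 and 3. ASPN was called at day 27 (-2.94 ± 0.88, adjusted p = 0.0218) and at no other single day, with adjusted p of 0.227, 0.29, 0.497 and 0.236 at days 3, 9, 15 and 21 (limma). The call at day 27 was lost without replicate 1 (adjusted p = 0.112), replicate 3 (adjusted p = 0.129) or the single stimulated array of replicate 1 at that day (adjusted p = 0.0577).

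**Figure D3:**
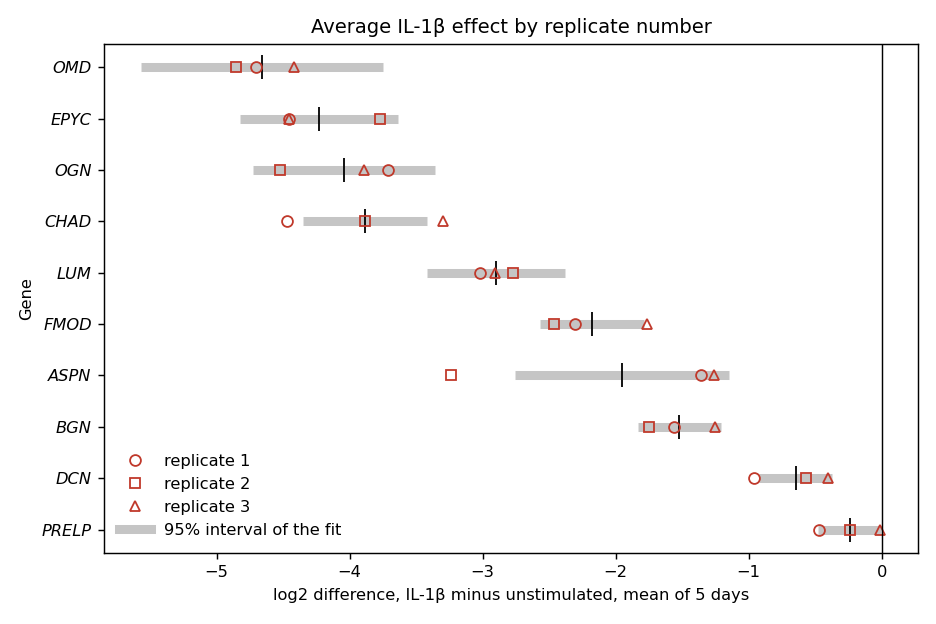
Log2 difference averaged over the 5 days (horizontal axis) for each gene (rows); open symbols are the 3 replicate numbers, black ticks the mean and grey bars the 95% interval of the fit. The 3 numbers lie close together for LUM (-3.02, -2.77 and -2.91) and far apart for ASPN (-1.36, -3.24 and -1.26), where replicate 2 lies outside the bar.

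Averaged over days within each replicate number, the difference was negative for all 10 genes in all 3 numbers. The spread between numbers was smallest for LUM (-2.90 ± 0.12, SD, n = 3) and OMD (-4.66 ± 0.22) and largest for ASPN (-1.95 ± 1.12). Over the 15 pairs of the same day and number, the stimulated explant was lower in 15 pairs for 8 genes, in 14 for DCN and in 9 for PRELP. These 15 pairs come from 3 replicate numbers over 5 days and are not 15 independent comparisons. The share of all probe sets with as many lower pairs was not counted. Replicate 3 had the highest stimulated signal at all 5 days for FMOD and BGN, at 4 of 5 for CHAD and PRELP, and at none for OMD and EPYC.

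Within groups, deviations from the group mean fell into 2 sets of genes, chosen after their values were seen and given as a description over 33 arrays that share horses and days. OMD, OGN and ASPN deviated together, with Pearson correlations of 0.624 for OMD with OGN, 0.667 for OMD with ASPN and 0.648 for OGN with ASPN. FMOD deviated with BGN at 0.864 and with PRELP at 0.720, and against OMD at -0.607. Without the stimulated arrays of day 27 these values were 0.638, 0.665 and 0.658, and 0.833, 0.774 and -0.649. For DCN with PRELP the correlation was 0.818 with those arrays and -0.100 without them, so it rested on day 27.

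The genes most like each member over the 33 arrays, by Pearson correlation, differed between members. CHAD was closest to ENPP1, which makes pyrophosphate (0.963), and CSGALNACT1, which starts chondroitin sulfate chains (0.961). OMD was closest to CPED1 (0.950), EPYC to SGCE (0.950) and OGN to USP13 (0.922). FMOD and BGN were each other's closest gene of all (0.944), and next to FMOD stood OLFM1 (0.942) and to BGN ABI3BP (0.920). DCN was closest to CLU, the gene of clusterin (0.926), LUM to LOC100059021 (0.858), PRELP to ALDH2 (0.844) and ASPN to PIEZO2 (0.830). Treatment and day are shared by all these arrays, so the values describe likeness of pattern only.

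The second question was how the genes behaved in unstimulated culture. None of the 10 was called between days 0 and 3, days 3 and 27 or days 0 and 27 by limma, where 0.401%, 1.01% and 5.44% of all probe sets were called. At an unadjusted p under 0.05, 2 were lower and 1 higher from day 0 to 3, 2 were higher from day 3 to 27, and 1 was higher from day 0 to 27. The share of all probe sets at that unadjusted threshold was not computed, so these counts have no background to be read against. Over the 6 times, FMOD varied by the moderated F-test (adjusted p = 0.0417), as did 4.66% of all probe sets. Its mean signals on days 0, 3, 9 and 27 were 10.78 ± 0.24, 10.26 ± 0.63, 10.85 ± 0.71 and 11.90 ± 0.06 (SD, n = 3). The call of FMOD was lost without the unstimulated array of day 27, replicate 3, which stands apart from all others (adjusted p = 0.0667), with a further quantile normalisation (adjusted p = 0.055) or without replicate 1 (adjusted p = 0.403) or 2 (adjusted p = 0.655). The step of 1.64 ± 0.42 from day 3 to 27 was near the threshold (adjusted p = 0.0561) and passed in the fit with the replicate block (adjusted p = 0.000659), as did the difference of 1.12 from day 0 (adjusted p = 0.135, and 0.00683 with the block).

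ASPN went from 7.30 ± 2.02 at day 0 to 5.32 ± 1.49 at day 3 and 4.25 ± 0.68 at day 15 without IL-1β, and this variation did not pass (F-test adjusted p = 0.242). With the block the variation over time was called (adjusted p = 0.0382). EPYC was at 9.04 ± 0.90 at day 0 and 10.38 ± 0.51 at day 3, a difference of 1.34 ± 0.64 (adjusted p = 0.561). DCN stayed between 13.47 and 13.66 in its 6 unstimulated group means, and its difference between days 27 and 0 had an interval of -0.55 to 0.68. PRELP means lay between 11.66 and 12.20 over the same times.

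Set against day 0 instead, stimulated explants at day 3 were lower for 5 of the 10 genes, beside 2.2% of all probe sets in that direction. OGN fell by 4.40 ± 0.74 (adjusted p = 0.000364), ASPN by 4.22 ± 0.88 (adjusted p = 0.00341), LUM by 2.34 ± 0.56, CHAD by 2.06 ± 0.51 and BGN by 1.69 ± 0.34. Culture time and IL-1β differ together in this comparison, and it shares its day 0 arrays with the one above. EPYC (-2.06, adjusted p = 0.0705) and FMOD (-1.37, adjusted p = 0.0668) did not pass and were called with the replicate block (adjusted p = 0.0222 and 0.00103). OGN alone of the 5 passed in every alternative setting.

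From day 3 to day 27 under IL-1β, 3 genes fell and 0 rose, beside 1.81% of all probe sets lower. OMD fell by 3.86 ± 0.99 (adjusted p = 0.027). LUM fell by 2.12 ± 0.56 (adjusted p = 0.0344) and DCN fell too, with an interval of -2.61 to -1.38 (adjusted p = 0.000368). OMD did so in steps, with means of 7.42, 5.12, 4.50, 4.15 and 3.56 at the 5 days. With the replicate block 8 genes were called lower, beside 2.67% of all probe sets, EPYC (-2.08), FMOD (-1.13), BGN (-1.11), CHAD (-1.64) and PRELP (-0.83) joining them with adjusted p of 0.0099 to 0.0352. Over the 5 days LUM (adjusted p = 0.00124) and DCN (adjusted p = 0.00119) varied by the F-test, as did 0.903% of all probe sets, and 7 of the 10 genes did so with the block, beside 1.79% of all probe sets. Without the stimulated array of day 27, replicate 1, the calls of OMD (adjusted p = 0.0825) and LUM (adjusted p = 0.181) were lost, and that of DCN was lost without replicate 2 (adjusted p = 0.0755).

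LUM encodes lumican, which spaces collagen fibrils and is required for a clear cornea, and its stimulated signal did not go one way over time. Stimulated signals were 7.79, 8.21 and 7.49 at day 3, 9.66, 8.74 and 7.74 at day 9 and 8.86, 9.82 and 8.14 at day 15. They were 9.69, 9.42 and 10.37 at day 21 and 5.17, 6.36 and 5.61 at day 27. The unstimulated arrays gave 10.89, 11.04 and 10.66 at day 21 and 11.45, 11.73 and 10.30 at day 27. The stimulated mean was thus highest at day 21, where the arrays came within 0.29 to 1.62 of their unstimulated partners, although replicate 2 had its highest signal at day 15. All 3 replicates were lowest at day 27.

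The difference of LUM was -2.50, -3.16 and -2.32 on days 3, 9 and 15, each ± 0.56. It was -1.04 ± 0.56 on day 21 (adjusted p = 0.281, limma; 0.0322 without replicate 3), and on day 27 LUM fell by 5.45 ± 0.56 (adjusted p = 8.24e-08). LUM was the only gene of the 10 whose difference varied between days by the F-test (adjusted p = 0.0473), as did 0.409% of all probe sets. That call was lost without replicate 1 (adjusted p = 0.646), replicate 2 (adjusted p = 0.735) or the stimulated array of day 27, replicate 1 (adjusted p = 0.151). With the replicate block FMOD (adjusted p = 0.000775), BGN (adjusted p = 0.0205) and DCN (adjusted p = 0.0493) were also called, beside 0.899% of all probe sets.

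**Figure D4:**
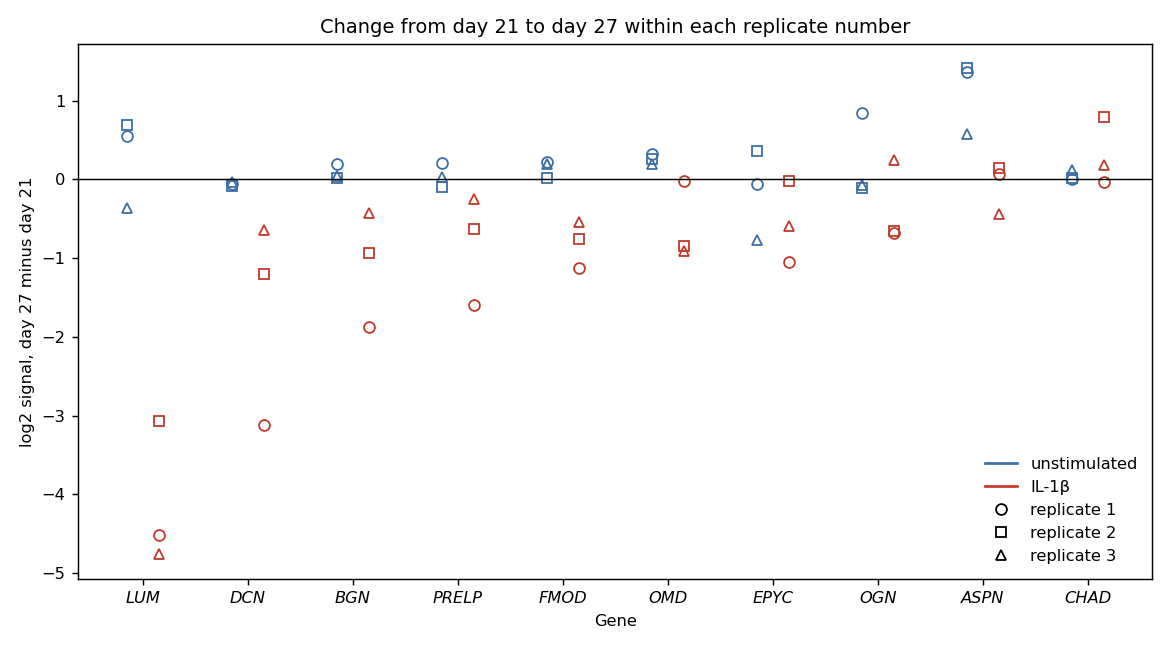
Change in log2 signal from day 21 to day 27 (vertical axis) within each replicate number (symbols) for the 10 genes (horizontal axis), in unstimulated (blue) and stimulated (red) explants. Stimulated LUM changed by -4.52, -3.06 and -4.77 while its unstimulated changes lay between -0.36 and 0.69; CHAD, OGN and ASPN show no shared fall.

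The step from day 21 to day 27 was examined after the values had been seen. Under IL-1β, LUM fell by 4.12 ± 0.56 in that step (adjusted p = 0.00233), and it was the only probe set of all 25923 that passed, a share of 0.00386%. The call was lost without replicate 1 (adjusted p = 0.484) or replicate 2 (adjusted p = 0.394) and kept without replicate 3 (adjusted p = 0.00167). LUM was lower at day 27 in 3 of 3 replicates, as were OMD, EPYC, FMOD, DCN, BGN and PRELP. The share of all probe sets lower in 3 of 3 was not counted, so this is a description only. The stimulated change of DCN was -3.12, -1.20 and -0.65 in replicates 1, 2 and 3. DCN differed by -1.66 ± 0.30 (adjusted p = 0.0764) and was called without the stimulated array of day 27, replicate 1, at -0.96 (adjusted p = 0.00813). The IL-1β effect on LUM differed between these days by -4.41 ± 0.80, which did not pass (adjusted p = 0.211, where 0 probe sets passed by limma). It passed once the replicate number was a block (adjusted p = 0.0483). At an unadjusted p under 0.05 this difference was lower for 4 of the 10 genes. The share of all probe sets at that unadjusted threshold was not computed.

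Other measures of the stimulated arrays of day 27 stand beside these values. The mean signal of the 11 chondrocyte markers was 7.48, 7.53 and 7.63 at day 21 and 6.97, 7.38 and 7.29 at day 27, lowest in replicate 1. Correlations between the arrays of the group were 0.980 to 0.984 and their medians 5.16 to 5.24, within the range of the other groups except for the lowest median. Their interquartile ranges, the spread of the middle part of an array's values, were 3.62 to 3.81. The upper value was the highest of all groups, beside up to 3.73 in the stimulated arrays of day 21. The median difference of the 11 markers between the 2 days was -0.21 on the log2 scale. The part of these measures in the day 27 results was not tested.

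The IL-1β effect at day 27 was larger than at day 3 for FMOD (-2.77 ± 0.60, adjusted p = 0.0188), DCN (-1.97 ± 0.42, adjusted p = 0.0178) and BGN (-1.97 ± 0.48, adjusted p = 0.0403), beside 0.644% of all probe sets with a more negative difference. The same difference was -2.95 ± 0.80 for LUM (adjusted p = 0.0713) and -1.29 for PRELP (adjusted p = 0.0942), and both passed once the replicate number was a block (adjusted p = 0.0286 and 0.0368). Without the stimulated array of day 27, replicate 1, DCN alone stayed past the threshold, and BGN had an adjusted p of 0.154. BGN was also lost without the unstimulated array of day 27, replicate 3 (adjusted p = 0.0697). With arrays or replicate numbers left out, the count ran from 0 to 5.

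Other leucine-rich proteoglycan genes and relatives were looked up from a list of 8 symbols, 7 of which had a probe set of their own. Several of them, such as KERA and OPTC, are themselves classed in the family. ECM2, a leucine-rich repeat matrix gene, fell by 2.94 ± 0.18 on average (adjusted p = 3.84e-13), from an unstimulated range of 9.40 to 10.97 to stimulated values of 8.28, 9.48 and 7.45 at day 3 and 5.54, 5.32 and 5.48 at day 27. Its stimulated arrays overlapped with the unstimulated range only through the value of 9.48. KERA, the gene of the corneal proteoglycan keratocan, fell by 0.24 ± 0.09 (adjusted p = 0.0459) at signals between 2.56 and 3.69, near the lowest on the array. PODNL1 (0.31 ± 0.11, adjusted p = 0.0372) and CHADL (0.23 ± 0.08, adjusted p = 0.0338) rose, and OPTC, TSKU and PODN did not pass on average, at 0.07, 0.21 and -0.08. At day 27, 2 of the 7 were called lower and 0 higher, ECM2 (-4.96) and PODN (-0.805, adjusted p = 0.00899, limma). The median of the 7 average differences was 0.07, beside -2.54 for the 10 genes above. The fall of the 10 thus does not describe every gene of the family. The lists were not matched for signal. Unstimulated OPTC and PODN had means of 5.44 and 5.29 at day 27, near the median of all values, 5.26. The part of signal level in the contrast of medians was not tested.

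In the human genome ECM2 lies beside ASPN, OMD and OGN, and DCN, LUM, KERA and EPYC lie together in another cluster. The 4 genes of the ECM2 cluster all fell on average, by 1.95 to 4.66, beside 15.3% of all probe sets called lower. Those of the DCN cluster fell by 0.65 (DCN), 2.90 (LUM), 0.24 (KERA, near the lowest signals) and 4.23 (EPYC). This grouping was not among the planned comparisons, and the part of gene position was not tested. No genome of the horse was used here, so this order was not checked for the horse.

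**Figure D5:**
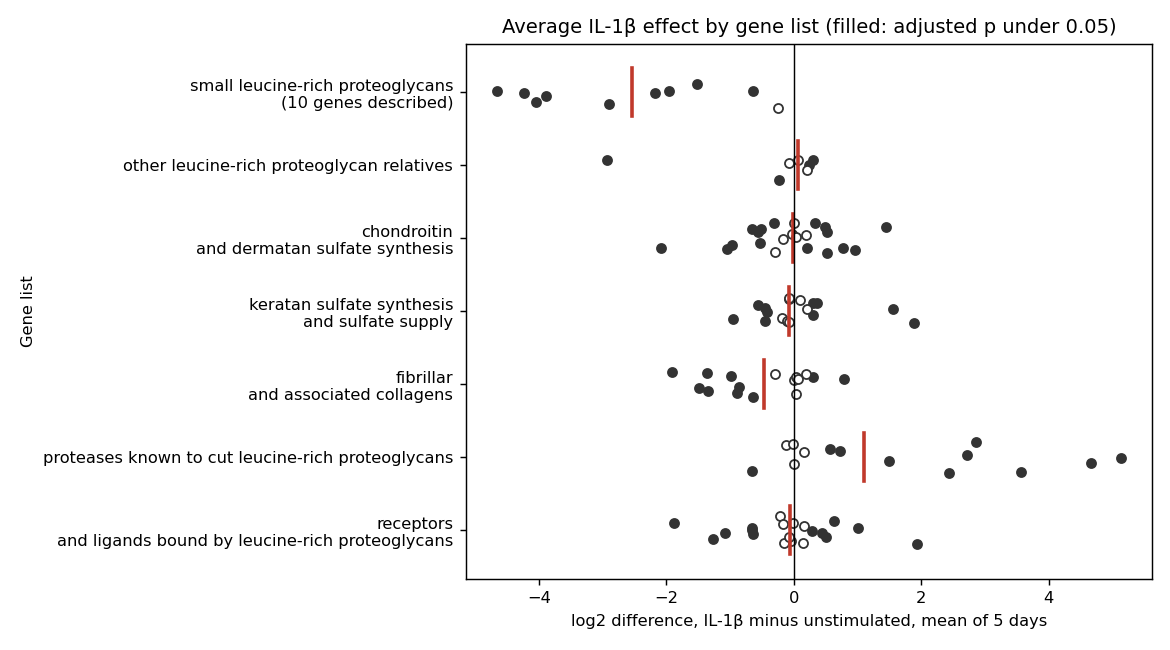
Average log2 difference between stimulated and unstimulated explants (horizontal axis) of every measured gene in 7 lists (rows); filled points passed an adjusted p of 0.05, open points did not, and red bars mark list medians. The 10 small leucine-rich proteoglycans described here lie to the left at a median of -2.54, the collagens at -0.47 and the proteases at 1.11, while the synthesis enzymes and receptors are spread around 0. Further genes of the family stand in the list of relatives, and all lists were chosen with earlier results of these data known.

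Genes that build, bind or cut these proteins were taken from lists of textbook partners, read against 30.8% of all probe sets called in either direction and an overall median of -0.04. Of 22 measured enzymes that make chondroitin and dermatan sulfate chains, 8 rose, 8 fell and 6 did not pass, with a median of -0.01. CSGALNACT1, which adds the sugar that commits a chain to chondroitin sulfate, fell by 2.08 ± 0.09. CHST12, a chondroitin sulfotransferase, fell by 0.97 and FAM20B, a xylose kinase of the linker region, by 0.51, while CHST15, which adds a further sulfate to chondroitin, rose by 1.45 ± 0.06. CSGALNACT2 and CHST11, in the same list as CSGALNACT1 and CHST12, rose by 0.78 and 0.96.

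Of 17 genes of keratan sulfate synthesis and sulfate supply, 5 rose, 5 fell and 7 did not pass (median -0.08). B4GALT1, a galactosyltransferase, rose by 1.89 ± 0.13 and the sialyltransferase gene ST3GAL1 by 1.57. CHST6, the sulfotransferase needed for corneal keratan sulfate in humans, fell by 0.95 ± 0.12 and B4GALT4 by 0.56.

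Of the 16 collagens of fibrils and their surfaces, 8 fell, 2 rose and 6 did not pass, with a median of -0.47. COL11A1, a minor collagen of the fibril core in cartilage, fell by 1.91 ± 0.09, COL9A3 and COL9A2 of the fibril surface by 0.98 and 0.87, and COL12A1, which bridges fibrils, by 1.36. COL2A1 fell by 1.35. At day 3, 2 collagens were called lower (1.54% of all probe sets) and at day 27, 8 were (6.54%).

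Among 14 proteases that can cut members of the family, 9 rose, 1 fell (TLL1, at -0.65) and 4 did not pass, with a median of 1.11. MMP8, the neutrophil collagenase, rose by 4.67 ± 0.14, ADAMTS4, an aggrecanase, by 3.56 ± 0.19 and the stromelysin MMP3 by 2.86 ± 0.24. BMP1, which trims the propeptide of probiglycan and of procollagens, rose by 1.49 ± 0.08.

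The 20 measured receptors and ligands that bind these proteins split evenly, with 6 higher, 6 lower and 8 not passing (median -0.06). The Toll-like receptor genes, whose products bind free biglycan, moved apart: TLR2 rose by 1.94 ± 0.14 (adjusted p = 7.68e-12) and TLR4 fell by 1.26 ± 0.11 (adjusted p = 2.28e-10). TGFB2, a growth factor of the TGF-β family, fell by 1.87 ± 0.20, while TGFB1 rose by 1.01 ± 0.14 and TGFB3 did not pass, at -0.22. ERBB4, a relative of the EGF receptor that decorin can bind, fell by 1.07 ± 0.12. TLR2 was at 0.95 at day 3 (adjusted p = 0.0967) and rose by 2.39 at day 27, and TLR4 fell at both days, by 0.91 and 1.53.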

How the data were processed

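Deposited by the authors were log2 signals in 1 table, with 25923 probe sets as rows and 33 arrays as columns. The submitters' processing notes name Affymetrix Expression Console, RMA and limma without versions or roles. The base of the logarithm was inferred from RMA and the values, 1.50 to 13.9. RMA equalises the arrays' distributions and flattens differences at both ends of the scale. Per the labels' protocols, cDNA was amplified from 2 ng of total RNA. The signals were used as deposited, without a measure of background, so the number of arrays limits the precision. Names came from the platform annotation: 16789 probe sets had 1 symbol, 343 several (not named) and 8791 none listed. For symbols with several probe sets the one with the highest mean was taken.

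A mean per group was fitted in limma 3.58.1 (R 4.3.3) with lmFit and eBayes, leaving 22 residual degrees of freedom, and moderated F-tests asked about variation over days. The procedure was also run on simulated arrays drawn independently of each other. That run cannot tell how the fit behaves where arrays of 1 replicate number are alike. An exact permutation test of 3 against 3 arrays cannot give a p below 0.1. In an alternative fit the replicate number was a block. The study used 3 horses, and each number goes with 1 experiment number in the sample descriptions, so arrays of 1 number were taken to share a horse. After removal of group means, arrays of the same number correlated at a median of 0.164 and those of different numbers at -0.0841, and 33 of 33 correlated best with their own number.

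The other alternatives were the number as a random block, dim probe sets left out, a further quantile normalisation, eBayes with trend, array weights, and arrays or replicates left out. Named were the members, their relatives with a probe set, up to 4 genes with the smallest adjusted p in each list, ACAN and COL2A1, and the genes most correlated with a member. TLL1, CSGALNACT2, CHST11, TGFB1, TGFB3 and the markers CD163, PTPRC, TNMD, IBSP, PECAM1, EGR1, ERG and CD68 were named after their values were seen. Members and lists were chosen with earlier results of these data known, and the step from day 21 to 27 and the setting without the stimulated array of day 27, replicate 1, after the data were seen. Scanner files were not used here.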

Additional observations from a re-analysis of the deposited data

Results flagged for a closer look

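For 4 genes the size of the IL-1β effect differed between days by a test of the difference itself. The effect on LUM varied over the 5 days (moderated F-test, adjusted p = 0.0473), with the smallest difference at day 21 (-1.04 ± 0.56) and the largest at day 27 (-5.45 ± 0.56). The effect at day 27 was larger than at day 3 for FMOD (-2.77 ± 0.60, adjusted p = 0.0188), DCN (-1.97 ± 0.42, adjusted p = 0.0178) and BGN (-1.97 ± 0.48, adjusted p = 0.0403) in the limma fit. All 4 calls were lost without replicate 1 and without replicate 2. Without the single stimulated array of day 27, replicate 1, those of LUM (adjusted p = 0.151), FMOD (adjusted p = 0.0784) and BGN (adjusted p = 0.154) were lost as well. BGN was lost, too, without the unstimulated array of day 27, replicate 3 (adjusted p = 0.0697).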

How the results depend on the processing

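Each result was recomputed under 11 other settings. Of 1853 values of the 10 genes, 1689 kept direction and call, 60 lost the call, 87 gained it and 17 had the other sign, 0 of them among called values. The average IL-1β effect stayed called for all 9 genes in every setting that tested them (ASPN was left out with the dim probe sets). Where the text gives no cause, the cause was not tested; fewer arrays lower the counts by construction.

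Counts below are of all probe sets and then of the 10 genes. With the replicate block, the growth of the effect from day 3 to 27 gave 496 and 5 (284 and 3 as reported). Unstimulated culture gave 179 from day 0 to 3 (104 as reported), 447 and 1 from day 3 to 27 (261 and 0 as reported), and 1 gene from day 0 to 27 (0 as reported). Stimulated culture gave 8 genes from day 3 to 27 (3 as reported) and 2 probe sets from day 21 to 27 (1 as reported). The effect's step from day 21 to 27 gave 1 and 1 (0 as reported). The F-tests gave 233 and 4 for the effect (106 and 1 as reported), 1838 and 2 without IL-1β (1208 and 1 as reported) and 465 and 7 with it (234 and 2 as reported). The block changed no other count by over 1.5 times.

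With a random block, unstimulated day 3 to 27 gave 398 and 1, stimulated day 3 to 27 gave 7 genes, day 21 to 27 gave 3 and 2, and the F-tests 186 and 3 for the effect and 390 with IL-1β. Without dim probe sets the genes called were 1, 7, 2 (of 3 probe sets) and 2 in those comparisons. With trend they were 1 and 2 (of 3). With array weights day 0 to 3 gave 172, stimulated day 3 against day 0 gave 1685, stimulated day 3 to 27 gave 1527 and 7, day 21 to 27 gave 22 and 2, unstimulated day 3 to 27 gave 1 gene, and the F-tests 194 and 2 and 823 and 5. A further quantile normalisation left 0 genes varying without IL-1β.

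With arrays or replicates left out, the IL-1β effect gave 217 to 928 calls and 1 to 4 genes at day 3, 638 to 2119 and 2 to 6 at day 9, 1293 to 3544 and 4 to 8 at day 15, 1548 to 3364 at day 21, 1890 to 2742 at day 27 and 5239 to 7731 on average. Its growth from day 3 gave 1 to 204 and 0 to 5, its step from day 21 0 to 1 and 0 to 1. Unstimulated day 0 to 3 gave 0 to 111, day 3 to 27 35 to 267 and 0 to 1, and day 0 to 27 391 to 1448 and 0 to 1. Stimulated day 3 against day 0 gave 346 to 1209 and 3 to 5, day 3 to 27 20 to 980 and 0 to 8, and day 21 to 27 0 to 6 and 0 to 2. The F-tests gave 1 to 106 and 0 to 2 for the effect, 271 to 1221 and 0 to 2 without and 3 to 282 and 0 to 5 with IL-1β.

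Values that changed sign were all uncalled. With a further quantile normalisation PRELP went to 0.079 at day 15 and -0.0026 from day 0 to 3, and DCN at stimulated day 3 against day 0 to -0.077. With array weights EPYC from day 3 to 27 without IL-1β went to 0.26. With arrays or replicates left out, PRELP ran from -0.042 to 0.13 at day 9, from -0.19 to 0.074 at day 15 and from -0.073 to 0.19 in unstimulated explants from day 0 to 3, where LUM ran from -0.97 to 0.90. In unstimulated explants from day 3 to 27 EPYC ran from -0.75 to 0.64 and DCN from -0.055 to 0.0079, and from day 0 to 27 OMD ran from -0.51 to 1.01 and BGN from -0.076 to 0.11. DCN at stimulated day 3 against day 0 ran from -0.038 to 0.028, and ASPN at stimulated day 27 against 21 from -0.19 to 0.11.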
